A study of Mus musculus with 18 samples.

Results

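The interferon pathway genes examined here were Ifnb1, which encodes interferon beta, the receptor genes Ifnar1, Ifnar2, Ifngr1 and Ifngr2, the kinase genes Jak1 and Jak2, and the signal transducer gene Stat2. They were chosen by symbol, and the arrays held 14 probe sets for these 8 genes, out of 20380 probe sets with 1 gene symbol and 12393 genes. Marrow cells of C57BL/6 mice aged 4 to 6 weeks had been turned into macrophages in medium with 20% conditioned medium of L929 cells, and RNA was measured on Affymetrix arrays. There were 6 groups of 3 arrays. CON cells received plain medium, and no times of treatment or of a second medium are recorded for them. Silica cells received 50 nm amorphous silica particles and SPIO cells 33 nm iron oxide particles for 24 h. The particle concentration is written as 25 mg/ml in the labels, a unit that could not be checked here. After the wash, Silica and SPIO cells stood in plain medium for 4 h. LPS, Silica-LPS and SPIO-LPS cells had the corresponding pretreatment and then 10 ng/ml lipopolysaccharide (LPS) of Escherichia coli for 4 h. No group carried a transgene or deletion. Arrays within a group are labelled biological replicates, but separate animals are not mentioned, and p-values therefore cover only how much these cultures varied.

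Interferon beta is secreted by macrophages when LPS engages TLR4 and the adaptor TRIF, through the kinases TBK1 and IKK epsilon and the factors IRF3 and NF-kB. It acts back on the same and on neighbouring cells through a receptor of IFNAR1 and IFNAR2, to which the kinases TYK2 and JAK1 are bound, and the activated complex of STAT proteins with IRF9 switches on antiviral genes. Interferon gamma, made mainly by lymphocytes, uses the separate receptor chains IFNGR1, bound by JAK1, and IFNGR2, bound by JAK2.

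The genes of 3 of the 4 receptor chains and Il10rb, a receptor chain for interleukin 10 and interferon lambda, are neighbours on mouse chromosome 16, in the order Ifnar2, Il10rb, Ifnar1, Ifngr2. Promoter sequences are shown for the members that rose under LPS and had a match to a searched motif before the start of the gene. They are the 250 bases before the start, from RefSeq on GRCm38.p6, written 5′ to 3′ along the gene, and all 8 members were found in that table. Capitals mark matches to GAAA, 2 bases of any kind and GAAA (the type of an interferon-stimulated response element), to TTCNNNGAA (the type of a gamma-activated site) or to GGG, 3 bases of any kind and TTCC (an NF-kB type site), each searched on both strands. The windows are chr4:88522795-88523044 on the minus strand for Ifnb1, and on the plus strand chr10:128270248-128270497 for Stat2, chr16:91546809-91547058 for Ifngr2 and chr16:91372533-91372782 for Ifnar2.
Ifnb1: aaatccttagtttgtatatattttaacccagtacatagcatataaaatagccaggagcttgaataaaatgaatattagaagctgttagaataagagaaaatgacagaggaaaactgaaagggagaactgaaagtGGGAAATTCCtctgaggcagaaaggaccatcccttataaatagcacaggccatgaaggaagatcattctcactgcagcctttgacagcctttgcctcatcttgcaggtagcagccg
Stat2: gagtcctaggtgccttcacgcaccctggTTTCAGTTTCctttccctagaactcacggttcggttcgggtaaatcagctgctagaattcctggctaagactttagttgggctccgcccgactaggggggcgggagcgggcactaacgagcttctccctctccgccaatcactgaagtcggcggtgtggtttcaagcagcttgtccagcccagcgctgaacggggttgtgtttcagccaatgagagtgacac
Ifngr2: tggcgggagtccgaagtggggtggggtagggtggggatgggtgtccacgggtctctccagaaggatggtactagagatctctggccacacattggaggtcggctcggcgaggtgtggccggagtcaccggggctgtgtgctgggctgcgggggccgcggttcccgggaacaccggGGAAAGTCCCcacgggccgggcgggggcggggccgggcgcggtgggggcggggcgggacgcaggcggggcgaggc
Ifnar2: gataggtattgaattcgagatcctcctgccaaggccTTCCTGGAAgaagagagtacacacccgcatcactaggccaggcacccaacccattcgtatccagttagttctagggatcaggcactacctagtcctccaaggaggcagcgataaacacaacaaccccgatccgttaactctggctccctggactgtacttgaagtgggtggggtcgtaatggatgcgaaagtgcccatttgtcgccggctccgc
The Ifnb1 window held the NF-kB type match GGGAAATTCC at -116 to -107 from the start, and the Ifngr2 window held one on the other strand at -75 to -66. The Stat2 window held an interferon-stimulated response element type match on the other strand at -222 to -213, and the Ifnar2 window a gamma-activated site type match at -214 to -206. A further match of the latter type lay across the start of Ifnar1, at -5 to 4. No match was found for Ifngr1, Jak1 or Jak2 in the 300 bases searched, which reach 50 bases past the start. Of 32851 promoter windows of that length, 3.44% held the first motif, 8.3% the second, 5.56% the third and 16.2% at least 1 of them, against 5 of the 8 members. These matches describe letters in a window and say nothing of binding in these cells.

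Values are log2 signals on a scale whose lowest value per array was 2.03 to 2.22 and whose highest was 14.5 to 14.6, and a gene counted as changed at a limma p below 0.05 after adjustment over all 12393 genes by the method of Benjamini and Hochberg. Arrays of 1 group correlated at 0.997 to 0.999. Array medians were 6.35 to 6.43 without LPS and 6.23 to 6.27 with it. All 10 macrophage markers had mean signals of 9.33 (Itgam) to 14.4 (Lyz2) in CON, and 8 measured markers of T and NK cells, the usual makers of interferon gamma, had at most 5.61 (Cd4). In CON the 10 fibroblast markers ran from 2.90 (Lum) to 13.5 (Col1a2) and 9 measured neutrophil markers from 5.55 (Elane) to 13.1 (S100a8). Dendritic cell markers ran from 3.72 (Cd209a) to 10.7 (Tcf4) and B cell markers from 3.85 (Cr2) to 9.45 (Ighm).

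**Figure D1:**
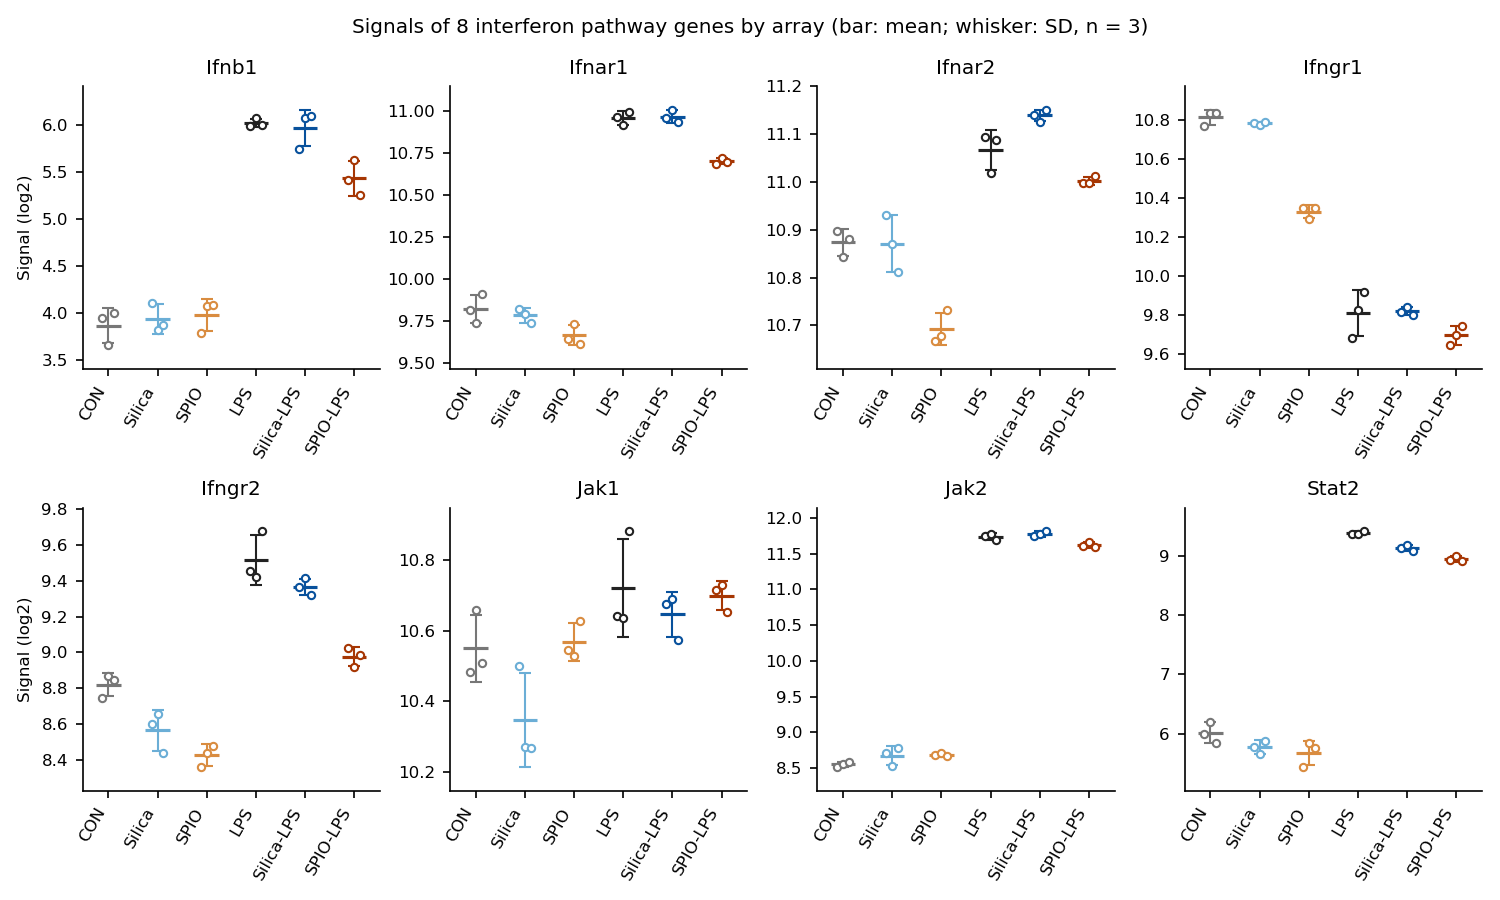
Log2 signal of the probe set used for each of the 8 genes, by group. Open circles are single arrays, horizontal bars group means and whiskers the SD (n = 3). The vertical scale differs between panels. All panels but that of Jak1 separate the arrays with LPS from those without, and Ifngr1 is the 1 gene that is lower with LPS.

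LPS raised the ligand, both chains of the interferon alpha/beta receptor, Ifngr2, Jak2 and Stat2, and lowered Ifngr1. Of the 8 genes 6 were called higher and 1 lower in LPS against CON, in a comparison that called 58.2% of all genes. The median difference was 0.92 for the 8 genes and -0.01 for all genes. Of 10 macrophage markers 7 fell and 2 rose with LPS, and of 10 fibroblast markers 5 fell and 4 rose. Of 9 neutrophil markers 4 fell and 2 rose, of 8 dendritic cell markers 0 fell and 3 rose, and of 7 B cell markers 1 fell and 0 rose. Limma called 0 of 8 T and NK cell markers (0 at an unadjusted p below 0.05). The log2 signal of 3′ minus 5′ control probe sets, a sign of RNA quality, was 0.65 to 0.72 in CON and 0.48 to 0.57 in LPS for Gapdh, and 0.58 to 0.61 and 0.32 to 0.41 for Actb. Their part in the LPS results was not tested. Array by array, Ifnb1 read 3.94, 3.65 and 3.99 in CON and 5.99, 6.07 and 6.00 in LPS. The groups did not overlap, and the rise was 4.46-fold (2.16 ± 0.12 on the log2 scale, SE, adjusted p = 2.1e-10). The CON signals lay near the lower end of the scale, where RMA signals understate a fold change. Of 9 other measured interferon genes (the alpha group, Ifnz and Ifng), limma called 0 in LPS against CON (1 at an unadjusted p below 0.05), and their group means in LPS ran from 2.85 to 6.19. Interferon alpha genes are near-identical copies of each other, so single members cannot be told apart with certainty by a probe set.

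Stat2, whose protein carries the signal of the interferon alpha/beta receptor to the nucleus, changed the most by the probe sets used for the genes. It read 5.99, 6.20 and 5.85 in CON and 9.37, 9.37 and 9.42 in LPS. The 2 groups lay more than 3 log2 units apart, a 10.3-fold rise (3.37 ± 0.097, adjusted p = 3.09e-14). Its second probe set rose by 3.09 on the log2 scale. Jak2, the kinase on IFNGR2, read 8.52, 8.56 and 8.59 in CON and 11.75, 11.78 and 11.69 in LPS. That was a 9.1-fold rise (3.19 ± 0.056, adjusted p = 9.08e-17), and 3.65 ± 0.051 by its second probe set, more than either Stat2 probe set. Jak1, the kinase shared by both receptors, was not called (0.17 ± 0.076, adjusted p = 0.067), with arrays at 10.48, 10.66 and 10.51 in CON and 10.64, 10.64 and 10.88 in LPS. Its other probe sets were called higher, by 0.30 (1433803_at) and 0.41 (1433804_at). The gene was called at 0.34 with cyclic loess scaling between arrays, at 0.29 with its probe sets averaged, and at 0.21 to 0.23 without CON array 2, LPS array 1 or LPS array 2.

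LPS moved Ifngr1 down and the other receptor genes up. Ifnar1 read 9.81, 9.74 and 9.91 in CON and 10.97, 10.92 and 11.00 in LPS, a 2.2-fold rise (1.14 ± 0.049, adjusted p = 5.31e-12). For Ifnar2 the answer depended on the probe set. The one used for the gene (1451462_a_at) read 10.90, 10.84 and 10.88 in CON and 11.09, 11.02 and 11.09 in LPS, a difference of 0.19 ± 0.04 (adjusted p = 0.00054), which was 0.36 with cyclic loess scaling. The other one (1427691_a_at) read 8.86, 8.94 and 8.87 in CON and 10.43, 10.43 and 10.58 in LPS. The 95% interval of its difference was 1.46 to 1.72, against 0.11 to 0.28 for the one used, and the mean of both gave 0.89. Which transcripts of Ifnar2 each probe set reads is not given in the sources used here.

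Ifngr1, the ligand-binding chain for interferon gamma, read 10.77, 10.84 and 10.84 in CON and 9.68, 9.82 and 9.91 in LPS. All arrays with LPS were lower, by 2.01-fold (-1.01 ± 0.052, adjusted p = 5.66e-11). Its partner Ifngr2 went the other way, from 8.75, 8.87 and 8.85 in CON to 9.45, 9.42 and 9.68 in LPS (0.70 ± 0.07, adjusted p = 2.39e-07), and its second probe set rose by 0.40. Il10rb, which lies between the receptor genes that rose on chromosome 16, fell by 0.27 on the log2 scale (adjusted p = 3.62e-06).

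The other genes of the pathway were taken from lists written from general knowledge, and their counts stand against 22.2% of all genes called higher and 36.1% called lower. Of 9 further receptor, kinase and signal transducer genes 5 rose and 3 fell under LPS. Those with the largest changes were Stat5a (1.97), Stat3 (1.16), the kinase gene Tyk2 (1.16) and Irf9 (1.15), the partner of STAT2. Among 14 inhibitors of JAK-STAT signalling 8 rose and 4 fell. Usp18, which blocks signalling at IFNAR2, stood at 6.32, Socs3 at 5.82, Socs1 at 3.09 and the STAT inhibitor gene Pias3 at -1.40. Of 18 genes upstream of Ifnb1, 13 rose and 4 fell, with the kinase gene Ikbke at 2.53 and Irf7 at 4.26, while Irf3 (-0.58) and Tlr4 (-0.75) fell. All 25 measured targets of interferon alpha/beta and 17 of 18 targets of interferon gamma rose, with medians of 4.14 and 2.02. Several genes stand in 2 of these lists.

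Silica moved none of the 8 genes past the threshold. Limma called 0 of 8 in Silica against CON (3 at an unadjusted p below 0.05), where 4.02% of all genes were called. It called 0 of 8 in Silica-LPS against LPS (2 at an unadjusted p below 0.05), where the share over all genes was 2.86%. The nearest to the threshold was Ifngr2, with 8.60, 8.66 and 8.44 in Silica against 8.75, 8.87 and 8.85 in CON. These arrays did not overlap (-0.25 ± 0.07, adjusted p = 0.0564), but the second probe set of Ifngr2 was not called (-0.08, adjusted p = 0.447). The gene was called with cyclic loess scaling (-0.28), with limma's trend and robust prior, without the dimmest genes and with array weights. Stat2 stood at -0.24 (adjusted p = 0.199) without LPS and at -0.25 (adjusted p = 0.192) with it, where the Silica-LPS arrays (9.13, 9.18 and 9.09) all lay below those of LPS. The other Ifnar2 probe set, tested among all 20380 probe sets, was called lower after silica (-0.27, adjusted p = 0.0296). Ifnb1 read 5.75, 6.07 and 6.09 in Silica-LPS, overlapping LPS, and the 95% interval of the difference ran from -0.31 to 0.21. Among the targets of interferon alpha/beta 11 of 25 fell after silica (median -0.28), and limma called 0 of them in Silica-LPS against LPS (2 at an unadjusted p below 0.05). Of 18 targets of interferon gamma 4 fell in each of these comparisons. Cd74, H2-Ab1 and H2-Eb1, which serve antigen presentation, were called in both. The fourth was Irf1 without LPS and H2-Aa with it, and H2-Aa stood at -0.30 (adjusted p = 0.0503) without LPS.

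**Figure D2:**
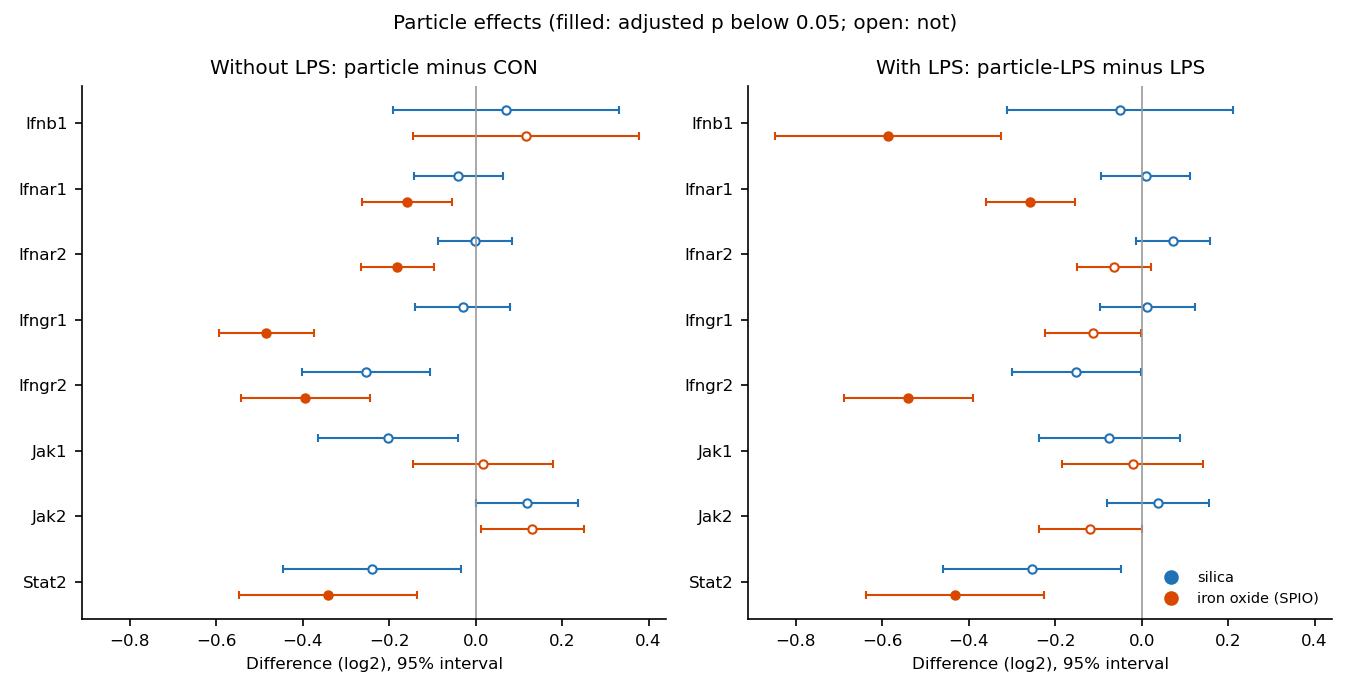
Log2 difference of each gene between particle-treated cells and their controls, without LPS (left) and with LPS (right). Points are estimates over 3 arrays per group, lines 95% intervals, and filled points have an adjusted p below 0.05. Iron oxide has filled points for 5 genes without LPS and 4 with LPS, all to the left of 0, and silica has none.

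Iron oxide lowered the 4 receptor genes and Stat2 in resting cells, and Ifnb1, Ifnar1, Ifngr2 and Stat2 in cells given LPS. Its comparisons use the same CON and LPS arrays as those of silica. In SPIO against CON 5 of 8 genes were called lower and 0 higher, where 33.8% of all genes were called in either direction. The median difference was -0.17 for the 8 genes and -0.01 for all genes. The largest fall was that of Ifngr1, which read 10.35, 10.29 and 10.35 in SPIO, below all CON arrays (-0.48 ± 0.052, 1.4-fold, adjusted p = 2.59e-06). Ifngr2 read 8.36, 8.44 and 8.48, also below all CON arrays (-0.39 ± 0.07, adjusted p = 0.000386), and its second probe set fell by 0.30. Ifnar2 fell by 0.18 ± 0.04 (adjusted p = 0.00225) by the probe set used and by 0.42 by the other. All 4 receptor genes were thus lower, since Ifnar1 fell by 0.16 ± 0.049 (adjusted p = 0.0195). That call was lost without CON array 3 (-0.11), SPIO array 1 (-0.15) or SPIO array 3 (-0.13). Il10rb was not called (0.09, adjusted p = 0.0684). Stat2 was called lower (-0.34 ± 0.097, adjusted p = 0.0124), but not without CON array 2 (-0.25) or SPIO array 1 (-0.22), and its second probe set stood at 0.07. Without SPIO array 1, 3 genes were called. Ifnb1 (0.12 ± 0.12) and Jak1 (0.02 ± 0.076) were not called. Nor was Jak2 (0.13 ± 0.056, adjusted p = 0.0835), although all its SPIO arrays were higher than CON and its second probe set rose by 0.27 (adjusted p = 0.000812).

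Markers of some cell types moved in SPIO against CON, where 33.8% of all genes were called. Of 10 fibroblast markers 6 fell and 0 rose after iron oxide, and their mean log2 signal went from 8.63 to 8.67 in CON to 8.23 to 8.28 in SPIO. Of 9 neutrophil markers 7 fell and 2 rose (array means of 9.49 to 9.54, then 9.19 to 9.25), and of 10 macrophage markers 7 fell and 2 rose (11.66 to 11.70, then 11.29 to 11.31). Of 8 dendritic cell markers 2 fell and 0 rose, and of 7 B cell markers 2 fell and 0 rose. Limma called 0 of 8 T and NK cell markers (1 at an unadjusted p below 0.05). The 3′ minus 5′ signal of Gapdh was 0.65 to 0.72 in CON and 0.45 to 0.50 in SPIO. For Actb it was higher in SPIO, at 0.64 to 0.67 against 0.58 to 0.61 in CON. Their part in the result was not tested. The signals are those of whole cultures, in which fewer cells of a type and less RNA per cell cannot be told apart.

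In cells given LPS, iron oxide lowered the ligand gene Ifnb1 as well as members that were also lower at rest. In SPIO-LPS against LPS 4 of 8 genes were called lower and 0 higher, where 32.7% of all genes were called. Ifnb1 read 5.42, 5.63 and 5.26 in SPIO-LPS. All were below the lowest LPS array (5.99), by 1.5-fold on average (-0.59 ± 0.12, adjusted p = 0.00152). Ifngr2 read 9.02, 8.92 and 8.99, against 9.42 or more in LPS (-0.54 ± 0.07, adjusted p = 1.83e-05). Stat2 read 8.94, 9.01 and 8.91, also below all LPS arrays (-0.43 ± 0.097, adjusted p = 0.00252), and its second probe set was not called (-0.32, adjusted p = 0.0808). Ifnar1 stood at 10.69, 10.72 and 10.70 (-0.26 ± 0.049, adjusted p = 0.00064). Ifngr1 was not called (-0.11 ± 0.052, adjusted p = 0.115), but it was called at -0.18 without LPS array 1 and at -0.15 with cyclic loess scaling. Ifnar2 was not called by the probe set used (-0.06 ± 0.04, adjusted p = 0.249) and was lower by the other (-0.43, adjusted p = 6.44e-05). The probe sets of the kinase genes differed as well. Jak1 stood at -0.02, with -0.81 for probe set 1433804_at (adjusted p = 1.39e-05), and Jak2 at -0.12 (adjusted p = 0.123), with -0.21 for its second probe set (adjusted p = 0.00437). When the probe sets of each gene were averaged, 7 genes were called, adding Ifnar2 (-0.25), Jak1 (-0.28) and Jak2 (-0.17). In this comparison 7 of 10 fibroblast markers fell and 0 rose, 7 of 9 neutrophil markers fell and 1 rose, and 5 of 10 macrophage markers fell and 2 rose. Of 7 B cell markers 2 fell and 0 rose. Limma called 0 of 8 dendritic cell markers (1 at an unadjusted p below 0.05) and 0 of 8 T and NK cell markers (0 at an unadjusted p below 0.05). The 3′ minus 5′ signal of Gapdh was 0.48 to 0.57 in LPS and 0.33 to 0.46 in SPIO-LPS, and that of Actb 0.32 to 0.41 and 0.51 to 0.54. Their part was not tested.

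**Figure D3:**
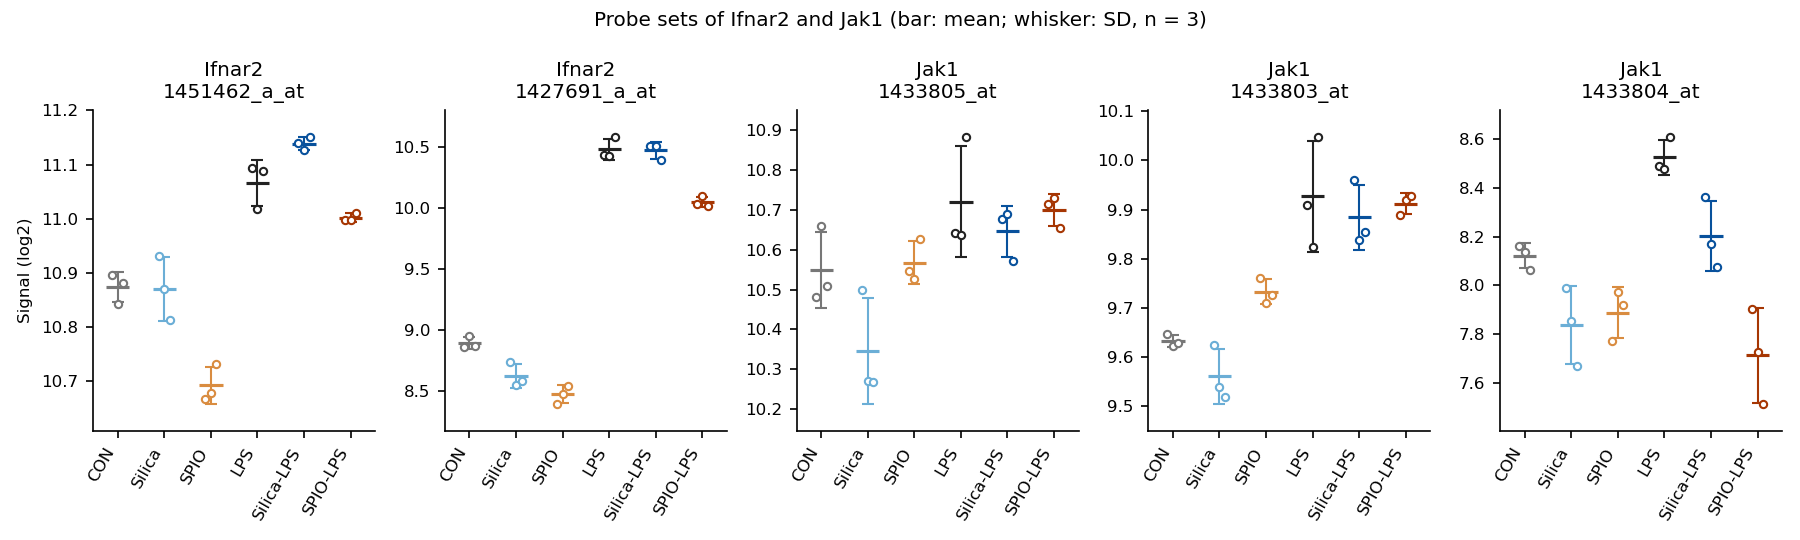
Log2 signals of the 2 Ifnar2 and 3 Jak1 probe sets by group, with single arrays as circles, means as bars and SD as whiskers (n = 3). The vertical scale differs between panels. LPS separates the groups by more than 1 log2 unit in the second Ifnar2 panel and by about 0.2 in the first, and all SPIO-LPS arrays lie below those of LPS in both Ifnar2 panels and, among the Jak1 panels, in the last.

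The comparison of LPS with no LPS within each pretreatment asks whether the particles altered the response. After silica, LPS changed all 8 genes, 7 higher and 1 lower, where 57.3% of all genes were called. After iron oxide, LPS changed 7 genes, 6 higher and 1 lower, where the share was 64.1%. Jak1 was the gene not called after iron oxide (0.13 ± 0.076, adjusted p = 0.141), and after silica it stood at 0.30 ± 0.076, or 0.47 with cyclic loess scaling. That scaling also called Jak1 after iron oxide (0.28, adjusted p = 0.00423). Its probe set 1433803_at was called higher after iron oxide (0.18, adjusted p = 0.0103), and 1433804_at was not called (-0.175, adjusted p = 0.147). The rise of Ifnb1 was 4.46-fold after plain medium, 4.1-fold after silica and 2.74-fold after iron oxide. Tested as an interaction, the rise after iron oxide was smaller by 0.70 on the log2 scale (-0.70 ± 0.17, adjusted p = 0.0169), while the difference after silica was not called (-0.12 ± 0.17, adjusted p = 0.935, 95% interval -0.49 to 0.25). Of 9 other interferon genes 1 was called in the interaction with iron oxide, Ifna4, with the opposite sign (0.39, adjusted p = 0.00759). In order of its mean signal, Ifnb1 stood at 6.02 ± 0.044 (SD, n = 3) in LPS, 5.97 ± 0.19 in Silica-LPS, 5.43 ± 0.18 in SPIO-LPS, 3.98 ± 0.17 in SPIO, 3.93 ± 0.16 in Silica and 3.86 ± 0.18 in CON. The first 2 groups, and the last 3, did not differ beyond their spread.

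**Figure D4:**
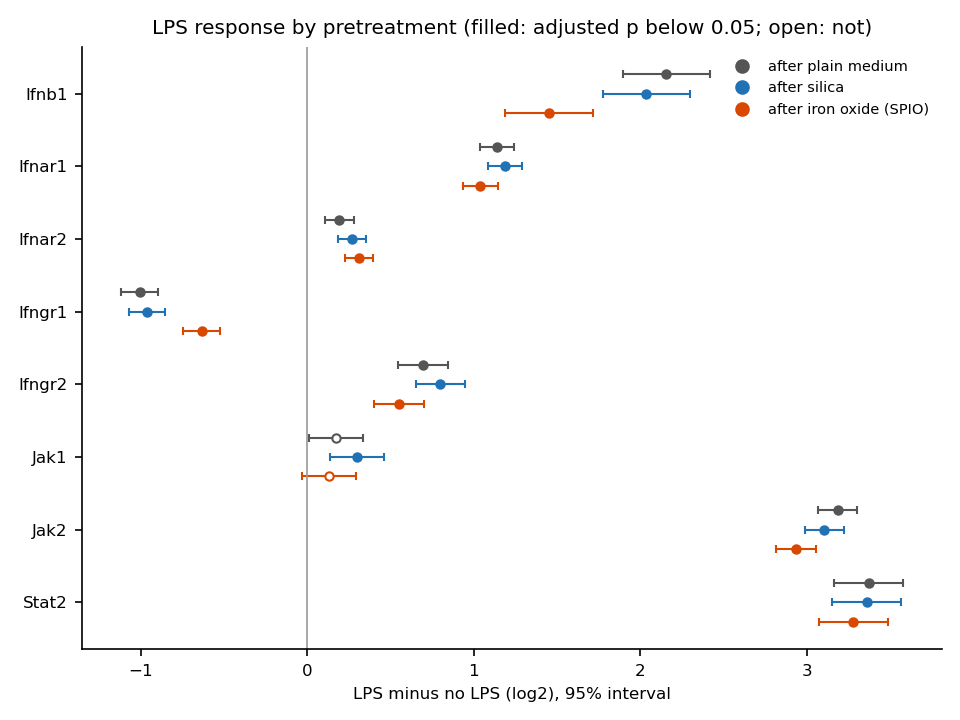
Log2 difference between cells with and without LPS for each gene, after plain medium, silica or iron oxide. Points are estimates over 3 arrays per group, lines 95% intervals, and filled points have an adjusted p below 0.05. The Ifnb1 response is 1.45 after iron oxide and 2.16 after plain medium, and the Ifngr1 fall is smaller after iron oxide.

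For Ifngr1 the interaction with iron oxide had the opposite sign (0.37 ± 0.073, adjusted p = 0.0035). Under LPS it fell by 1.01 on the log2 scale after plain medium and fell by 0.63 after iron oxide. With LPS the arrays of SPIO-LPS (9.64, 9.70 and 9.74) and LPS overlapped. Of all genes, 8.8% had an interaction with iron oxide and 2 of the 8 members did, and 0.0161% had one with silica. For silica limma called 0 of the 8 (0 at an unadjusted p below 0.05). The interaction of Jak2 with iron oxide did not pass (-0.25 ± 0.079, adjusted p = 0.0639) but did with cyclic loess scaling (-0.27) and with its probe sets averaged (-0.365). It also passed with limma's trend and robust prior, without the dimmest genes and in a fit to the groups compared alone. That of its second probe set passed as well (-0.48 ± 0.072, adjusted p = 0.00049). The Jak1 probe set 1433804_at also passed (-0.58 ± 0.14, adjusted p = 0.0194), and the other Jak1 probe sets did not.

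Iron oxide and silica differed directly in some members. In SPIO against Silica 1 gene was called higher and 2 lower, where 26.1% of all genes were called. Ifngr1 (-0.45 ± 0.052, adjusted p = 7.84e-06) and Ifnar2 (-0.18 ± 0.04, adjusted p = 0.00348) were lower. The other Ifnar2 probe set was not called (-0.15, adjusted p = 0.0959). Ifngr2 was not called (-0.14, adjusted p = 0.167), but its second probe set was lower (-0.22, adjusted p = 0.00626). Jak1 was higher (0.22 ± 0.076, adjusted p = 0.0436), a call that was lost when any 1 of 5 arrays was left out, all but Silica array 1, with values from 0.18 to 0.24. Its probe set 1433803_at was also higher (0.17, adjusted p = 0.0324), and 1433804_at was not called (0.05). In SPIO-LPS against Silica-LPS 4 genes were lower and 0 higher, where the share over all genes was 25.1%. They were Ifnb1 (-0.54 ± 0.12, adjusted p = 0.00405), Ifngr2 (-0.39 ± 0.07, adjusted p = 0.000597), Ifnar1 (-0.27 ± 0.049, adjusted p = 0.000685) and Ifnar2 (-0.14 ± 0.04, adjusted p = 0.0195). The call of Ifnar2 was lost without Silica-LPS array 1 (-0.14) or 3 (-0.13) and without SPIO-LPS array 1 (-0.14) or 2 (-0.13). Its other probe set was lower by more (-0.42, adjusted p = 0.000122). Jak2 and Jak1 were not called, but Jak2 probe set 1421065_at (-0.27, adjusted p = 0.00114) and Jak1 probe set 1433804_at (-0.49, adjusted p = 0.00216) were lower. Jak1 probe set 1433803_at (0.03) and the second probe set of Stat2 (-0.20) were not called. Cell type markers differed too. In SPIO against Silica 8 of 10 fibroblast markers were lower and 0 higher, and 6 of 9 neutrophil markers lower and 1 higher. Of 10 macrophage markers 6 were lower and 2 higher. Of 8 dendritic cell markers 1 was lower, and of 7 B cell markers 2, with 0 higher. In SPIO-LPS against Silica-LPS 8 fibroblast, 7 neutrophil and 5 macrophage markers were lower, and 0, 1 and 2 higher. Their part was not tested. The particles differ in size as well as in material, so the 2 cannot be told apart.

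Around the members, iron oxide lowered 21 of 25 targets of interferon alpha/beta and 14 of 18 targets of interferon gamma in resting cells, where 14.2% of all genes were called lower. The medians of these targets were -0.50 and -0.49, against -0.01 for all genes. Mx1 (-1.44 ± 0.18) and Irf7 (-1.23 ± 0.079) were among the former. With LPS 7 of the 25 alpha/beta targets were lower and 2 higher in SPIO-LPS against LPS. Taken in either direction, that is near the share over all genes (32.7%). By direction, 14.6% of all genes were called lower and 18.2% higher. Cxcl11, a chemokine (-1.56 ± 0.13), and Eif2ak2, an antiviral kinase (-0.69 ± 0.11), had the largest falls, followed by Irf7 (-0.36 ± 0.079), and Oasl1 (0.33 ± 0.12) and Parp14 (0.21 ± 0.052) were the 2 that rose. Ifit1 (-0.05) and Mx1 (-0.28) were not called. In the interaction with iron oxide 14 of the 25 were higher, among them Mx1 (1.16 ± 0.25), Ifit1 (0.92 ± 0.17) and Irf7 (0.87 ± 0.11), and 1 was lower, Cxcl11 (-1.62 ± 0.18). Of all genes, 3.73% were called higher and 5.07% lower in that interaction. In SPIO-LPS against LPS 12 of 18 interferon gamma targets fell and 1 rose, led by the antigen presentation genes Cd74 (-1.37 ± 0.066), H2-Aa (-1.36 ± 0.081) and H2-Eb1 (-1.31 ± 0.081). In the same comparison 4 of 18 genes upstream of Ifnb1 were higher and 6 lower. Irf8 fell by 0.96 ± 0.055 and Ikbke by 0.42 ± 0.051, while Tlr4 (0.22 ± 0.049) and Irf3 (0.16 ± 0.056) rose. Irf9 was lower both at rest (-0.51 ± 0.048) and with LPS (-0.24 ± 0.048), and Tyk2 was called in neither (0.05 and 0.06). Of 14 inhibitors, 3 were higher and 5 lower with LPS, with Socs2 at -0.83 ± 0.051, Socs1 at -0.74 ± 0.14 and Socs3 at -0.34 ± 0.094.

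The genes most like each member were sought by the root mean square difference of centred log2 signals over the 18 arrays, for members whose group means spanned at least 1 log2 unit. Nearest to Ifnb1 were P2ry14 (0.133), Bcl6 (0.153) and Rmdn3 (0.162), with Pearson r of 0.991, 0.989 and 0.988. Nearest to Stat2 were Trim30d (0.122), Sdc4 (0.134) and Dhx58 (0.14), and to Jak2 they were Trim21 (0.102), Zup1 (0.112) and Parp9 (0.118). Ifnar1 was nearest to Sertad1 (0.0563), Ifngr1 to Gas5 (0.0799) and Ifngr2 to Cdk14 (0.0865). These r values, 0.968 to 0.998 over the 6 members, are a description, since the arrays share the split between LPS and no LPS.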

How the data were processed

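RNA of 18 macrophage cultures was hybridised to 1 Affymetrix array each, from 3 µg of total RNA per the labels. Per the submitters' processing notes, the deposited values came from RMA, and the file holds them as log2 signals per probe set, without detection calls or counts. The RMA settings are not stated in these sources. Of 22690 probe sets 64 were controls, and of the rest 20380 had 1 gene symbol, 691 several and 1555 none. None of those with several symbols named a member. Symbols were updated through gene identifiers for 20351. One probe set stood for each of 12393 genes, that of highest average over the arrays, and every probe set with 1 symbol was tested in a second fit.

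limma 3.58.1 in R 4.3.3 was fitted to all 18 arrays with 1 mean per group, and p-values were adjusted within each of 11 comparisons by the method of Benjamini and Hochberg, with calls below 0.05. Errors of differences are standard errors of the model. The number of arrays limits the precision: the median 95% interval of a difference was ± 0.17. The procedure was tested on simulated data. Replicate numbers were not used as pairs, since deviations of same-numbered arrays had a median correlation of -0.01, with every pair above 0.1 in 0 of 15 pairs of groups.

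Named were all 8 members, from each list at most 4 called genes with the largest change per comparison, the 3 genes most like a member, and Irf9, Tyk2, Socs1, Socs3, Usp18, Irf3, Irf7, Tlr4, Mx1 and Ifit1. Il10rb was added as a neighbour, and Parp14 and markers after their values were seen. Members and lists were chosen with earlier results of these data known. Alternatives were the replicate block, a fit to the arrays of the groups compared, limma's trend with robust prior, a filter on the dimmest 33.3% of genes, averaged probe sets, every probe set, cyclic loess, array weights and leaving out each array. Figures were drawn with matplotlib 3.10.9 in Python 3.11.15.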

Additional observations from a re-analysis of the deposited data

Results flagged for a closer look

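The response to LPS differed after iron oxide for 2 members and for 2 further probe sets, by the interaction in limma. For Ifnb1 the interaction was -0.70 on the log2 scale and for Ifngr1 it was 0.37. Probe set 1421065_at of Jak2 stood at -0.48 and probe set 1433804_at of Jak1 at -0.58. Groups of 3 arrays are too small for a test of single outlying arrays.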

How the results depend on the processing

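No called difference of a member changed sign under an alternative applied to the gene, while the second probe set of Stat2 stood at 0.07 in SPIO against CON, where the gene was called at -0.34. Differences called under neither setting were given no direction. The count of members called in SPIO against CON was 3 instead of 5 when only the arrays of these groups were fitted, and 3 to 5 when 1 array was left out. In Silica against CON it was 1 with the variance trend, without the dimmest genes and with cyclic loess, 2 with array weights, and 0 to 1 when 1 array was left out. In SPIO-LPS against LPS it was 7 with averaged probe sets. Leaving out the dimmest genes removed Ifnb1 from the test. With the replicate block the counts were as in the fit without it except in SPIO against Silica, where Jak1 (0.22, adjusted p = 0.0653) was lost and 2 remained called, and 445 genes instead of 498 were called in Silica against CON. The numbers of all genes called in Silica against CON were 110 in the fit of these groups alone, 850 with the trend, 755 without dim genes, 919 with weights and 203 to 318 without CON array 1, 2 or 3 or Silica array 2 or 3. In Silica-LPS against LPS, 355 became 63, 577 and 536 under the first 3 of these, and 186 to 214 without LPS array 2 or Silica-LPS array 1 or 3. The interaction with silica, 2 genes, gave 0 to 40. Over every probe set, where more features are tested, 11296 were called in LPS against CON, 6619 in SPIO against CON, 6162 in SPIO-LPS against LPS, 11199 after silica and 12375 after iron oxide with LPS against without. With cyclic loess the split of higher and lower calls went from 304 and 194 to 253 and 268 in Silica against CON, and from 2662 and 4442 to 3370 and 3547 in Silica-LPS against Silica. For these changes the cause was not tested, apart from the number of features.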
